A study of Mus musculus with 5 samples.

Results

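The interferon-inducible GTPases were examined in Th2 cells by ChIP-Seq for RNA Polymerase II, as 8 gene names: BC057170, Mpa2l, Tgtp, Irgm, Igtp, Iigp1, Gbp2 and Ifi47. A line of the gene table was accepted for a name where its coordinates fitted the locus of that gene on mm9. This held for 7 of the 8 names, among 11608 genes in the table and 8551 with an enriched interval in at least 1 library. The line labelled Gbp2 was not accepted, because it lies on the neighbouring gene Gbp7, and the line at the Gbp2 locus is described separately. The names were selected on the peak heights of the untreated Parp14+/+ and Parp14−/− libraries, so the ratios of that pair are a description.

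The cells came from C57BL/6 mice that were Parp14+/+ or Parp14−/−, the latter lacking PARP-14, and each genotype was studied with and without PJ34, a small-molecule inhibitor of PARP enzymes. Naïve splenic CD4+ T cells of all groups were activated through CD3 and CD28 over 3 days, with IL-4 at 10 ng/ml and neutralised IFN-γ, and were expanded over 4 days in IL-2 and IL-4. The labels give PJ34 at 10 µM, added to differentiated cells, whereas the methods of the study name another dose and describe culture with the inhibitor. Each genotype gave 1 library without and 1 with PJ34, and chromatin of both genotypes was mixed for the Input. No difference below therefore has a replicate check, no test between conditions was possible, and each condition cannot be told apart from its own culture and library.

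Guanylate-binding proteins (GBPs) and immunity-related GTPases (IRGs) are among the most strongly induced products of interferon-γ signalling in mouse cells. They bind to the vacuoles that hold intracellular parasites and bacteria and help to disrupt them. Induction runs from the interferon-γ receptor through the kinases JAK1 and JAK2 to promoter elements known as gamma-activated sites (GAS) and interferon-stimulated response elements (ISRE), the latter bound by factors such as IRF1. The antibody recognised the phosphoserine 2 form of RNA Polymerase II, which marks elongating polymerase and lies mostly over gene bodies and 3′ ends.

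Because the members share this route of induction, their promoters are shown first. RefSeq promoters on GRCm38.p6, from 250 bases before to 50 after the start, were matched to 5 of the 8 names. BC057170 (now Gbp9), Mpa2l (now Gbp6) and Iigp1 were not matched. An exact ISRE core, GAAA, any 2 bases and GAAA on either strand, was present in 4 of these 5 promoters and in 3.44% of 32851 promoters of the same length. A GAS, TTC, any 3 bases and GAA, was present in 2 of 5 and in 8.30% of all promoters, and the STAT6-type spacing, TTC, any 4 bases and GAA, in 0 of 5 and in 6.95%. The 4 promoters with a match are printed 5′ to 3′ in the direction of transcription, with matches in capitals.
Tgtp (Tgtp1), chr11:48992197-48992496, minus strand: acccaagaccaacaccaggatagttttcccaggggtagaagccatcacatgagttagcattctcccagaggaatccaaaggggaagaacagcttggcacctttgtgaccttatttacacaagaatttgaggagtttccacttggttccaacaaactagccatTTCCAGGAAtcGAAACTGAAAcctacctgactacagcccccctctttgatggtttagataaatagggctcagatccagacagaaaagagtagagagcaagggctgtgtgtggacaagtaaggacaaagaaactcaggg
Irgm (Irgm1), chr11:48871371-48871670, minus strand: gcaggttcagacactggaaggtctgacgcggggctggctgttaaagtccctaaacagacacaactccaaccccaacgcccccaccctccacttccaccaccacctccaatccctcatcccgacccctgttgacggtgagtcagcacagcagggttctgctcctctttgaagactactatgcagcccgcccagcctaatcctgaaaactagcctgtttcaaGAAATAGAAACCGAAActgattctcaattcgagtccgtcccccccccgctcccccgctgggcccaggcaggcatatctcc
Igtp, chr11:58199306-58199605, plus strand: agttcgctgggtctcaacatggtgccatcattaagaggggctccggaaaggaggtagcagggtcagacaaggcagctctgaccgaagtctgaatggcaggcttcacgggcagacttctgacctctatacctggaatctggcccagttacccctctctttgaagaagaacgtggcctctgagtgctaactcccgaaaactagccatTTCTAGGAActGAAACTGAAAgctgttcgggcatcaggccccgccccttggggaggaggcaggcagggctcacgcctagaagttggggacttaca
Gbp2, chr3:142620413-142620712, plus strand: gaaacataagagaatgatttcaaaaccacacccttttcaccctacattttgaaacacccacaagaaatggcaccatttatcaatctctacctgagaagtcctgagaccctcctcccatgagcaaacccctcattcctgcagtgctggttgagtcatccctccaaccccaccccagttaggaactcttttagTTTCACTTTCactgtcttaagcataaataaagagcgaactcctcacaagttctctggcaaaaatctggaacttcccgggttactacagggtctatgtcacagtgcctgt

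In Tgtp the GAS began 88 bases before the start and the ISRE core 77 bases before it, and in Igtp they began 45 and 34 bases before it. The GAS therefore stood directly upstream of the ISRE core in both genes. Irgm held 2 ISRE cores that overlapped, beginning 30 and 24 bases before the start. In Gbp2 the ISRE core lay on the reverse strand, between 59 and 50 bases before the start. None of these exact letters was found in the Ifi47 window, which lies at the RefSeq start. All windows are at RefSeq starts on GRCm38.p6 and were not matched to the starts of the listed mm9 lines, and the listed lines of Tgtp and Ifi47 start downstream of the vM1 start of the gene. A match is a sequence description and was not tested as a binding site.

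The deposited measurement was the average peak height of a gene. For each active region, a stretch where enriched intervals of any library in the table overlap, the highest pile-up of fragments was taken, and these were averaged within the gene. Depth was made equal by the authors before these values were formed. A ratio is given with a 95% exact binomial (Clopper-Pearson) interval of the summed heights, which covers counting error only. A gene was called by the thresholds of the study, a ratio above 1.4 or below 0.7, or from 1.2 to 1.4 or 0.7 to 0.83 where either height was above 11, with an interval in the higher library.

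In untreated Th2 cells, polymerase over all 7 accepted GTPases was higher without PARP-14, from 1.67-fold at Igtp to 3.60-fold at Iigp1. All 7 were higher in Parp14−/−, against 42.6% of all genes with an interval by any amount, and all 7 were called, as were 15.0% of all genes with an interval, and the median Parp14+/+ to Parp14−/− ratio was 0.383 against 1.00 over all such genes. The counting interval of the ratio left out 1 for 6 members, with Igtp the exception, and for 2.08% of all genes in this direction. In the PJ34-treated pair, which consists of other libraries, the heights of all 7 were again higher in Parp14−/− cells, against 28.4% of all genes, by smaller ratios, and 6 were called, as were 8.64% of all genes. In that pair the counting interval left out 1 at 1 of the 7, Irgm, and at 0.772% of all genes in this direction. Both Parp14−/− heights lay above both Parp14+/+ heights at 7 of 7 members and at 10.7% of all genes, a count that includes the untreated pair used for the selection.

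**Figure D1:**
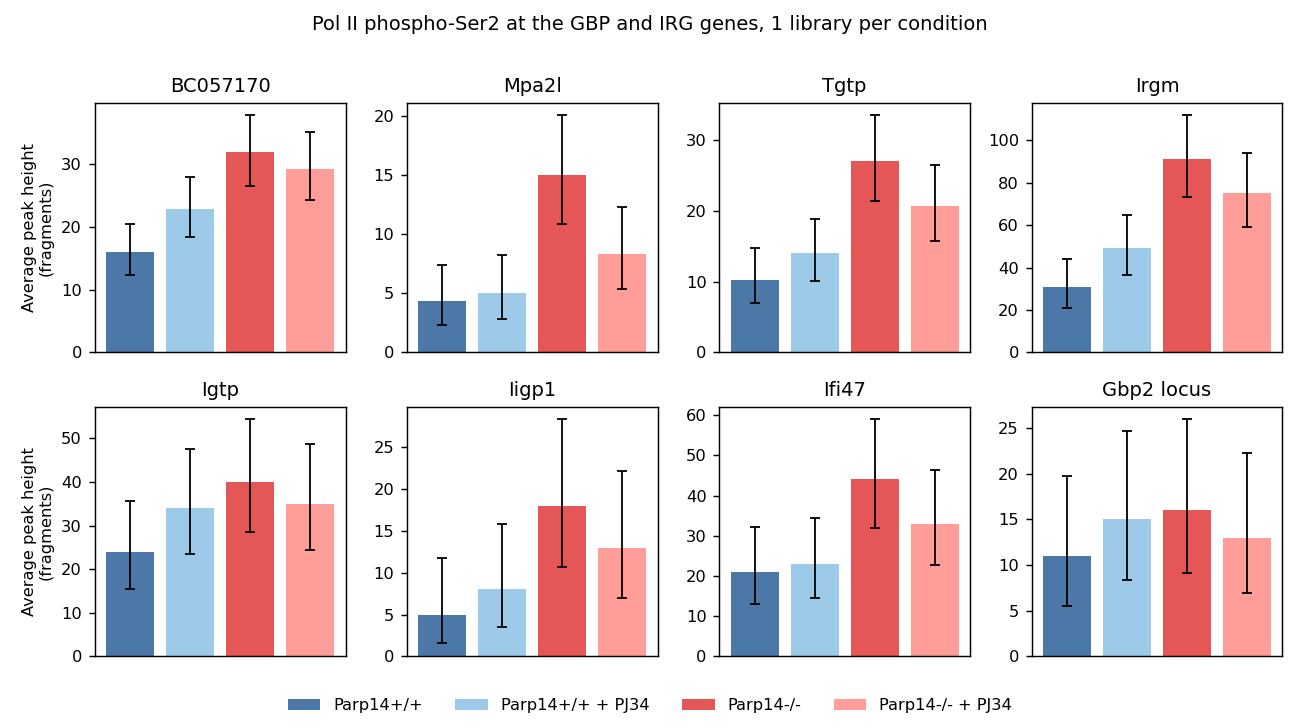
Average peak height in fragments at each gene and at the Gbp2 locus, with 1 bar per library and 95% exact Poisson intervals of the summed height that cover counting error only. The untreated Parp14+/+ bar is the lowest and the untreated Parp14−/− bar the highest in each of the 8 panels, and the Gbp2 locus differs by the least.

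The IRG regulators are the members that guard the membranes of the cell itself. Irgm (Irgm1; gene identifier 15944; mm9 chr11:48678751-48684848, minus strand) reached 31 fragments in untreated and 49 in PJ34-treated Parp14+/+ cells, against 91 in untreated and 75 in PJ34-treated Parp14−/− cells. The Parp14−/− height was 2.94-fold the Parp14+/+ height (1.93 to 4.57). With PJ34 in both, it was 1.53-fold (1.05 to 2.24), the one member whose counting interval left out 1 in the treated pair, against 0.772% of all genes. The 4 highest points lay between 447 and 799 bp past the 3′ end of the listed gene, where the gencode vM1 annotation carries the gene further.

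Igtp (Irgm3; gene identifier 16145; chr11:58013058-58021093, plus strand), the other regulator, showed the smallest contrast. Its heights were 24, 34, 40 and 35 in the same order of libraries. The untreated fold was 1.67 (0.98 to 2.89) and the treated fold was 1.03 (0.624 to 1.70), so that neither was detectable beyond counting error. Its single active region also holds Irgb10 (Gm12250) and Mrpl22, a mitochondrial ribosomal protein gene, and all 3 lines carry identical values. The highest points lay 859 to 955 bp past the 3′ end of Igtp in all 4 libraries, which places the printed value next to Igtp and not at the other genes.

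The IRG effectors are the members that load onto the vacuole of the parasite. Tgtp (Tgtp1, also called Irgb6; gene identifier 21822; chr11:48798832-48805750, minus strand) had heights of 10.3, 14, 27 and 20.7 in the same order, averaged over 3 active regions. It was 2.61-fold higher in Parp14−/− (1.71 to 4.09) and 1.48-fold higher in the treated pair (0.982 to 2.24). The highest point lay 26 to 90 bp from the start of the longer vM1 gene in 3 libraries, upstream of the start of the listed line, and 3738 bp from the vM1 start in Parp14+/+ + PJ34. Of the 36-base stretches of Tgtp, the read length of the study, 59.3% occur unchanged at the neighbouring copy Tgtp2, which has no line of its own in the table, so reads of these genes could not all be told apart. The study used uniquely mapped alignments, so reads within shared stretches would be left out, and the value is uncertain.

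Ifi47 (Irgd; gene identifier 15953; chr11:48900557-48910473, plus strand) had heights of 21, 23, 44 and 33 in the same order. Both Parp14+/+ libraries were below both Parp14−/− libraries, with an untreated fold of 2.10 (1.22 to 3.71) and a treated fold of 1.43 (0.817 to 2.56). The highest point lay further along the gene in the Parp14−/− libraries. It was 2988 and 3020 bp before the annotated 3′ end in Parp14+/+ without and with PJ34, and 468 and 820 bp past it in Parp14−/− without and with PJ34.

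Iigp1 (Irga6; gene identifier 60440; chr18:60549449-60552288, plus strand) is an IRG that loads onto the vacuole of Toxoplasma. Its heights were 5, 8, 18 and 13 over a single active region, the lowest summed heights of the accepted lines. The untreated fold of 3.60 had a counting interval from 1.29 to 12.4, and the treated fold of 1.62 an interval from 0.624 to 4.52. By the highest pile-up among the intervals of each library the treated ratio was 1.00, so the difference in the treated pair was lost under that summary. No interval of Parp14+/+ lay on the listed line, and 2 lay within the longer vM1 gene, with heights of 5 and 4. In Parp14−/− a single interval of 19200 bp ran over the whole gene. The line shares its values with a second line of the same locus, labelled LOC435565. Of its 36-base stretches 15.6% occur unchanged at another position in the GBP and IRG loci, its own locus included, and 15.4% at Gm4951. Each locus was taken with 2 kb on each side, as was Tgtp2 above.

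Among the GBPs, Mpa2l (Gbp6; gene identifier 100702; chr5:105699723-105722714, minus strand) had heights of 4.33 without and 5 with PJ34 in Parp14+/+ cells, and of 15 without and 8.33 with PJ34 in Parp14−/− cells. The untreated fold was 3.46 (1.84 to 6.99) and the treated fold was 1.67 (0.845 to 3.40). Without PARP-14 intervals covered 85.6% of the gene with or without PJ34, against 0.117% in Parp14+/+ and 46.3% in Parp14+/+ + PJ34. The highest point in Parp14−/− had a height of 22 and lay 318 bp inside the gene, whereas the single Parp14+/+ interval touched only its 3′ end, with a height of 5. Of its 36-base stretches 64.1% occur unchanged at another position in the GBP and IRG loci, its own locus included. Those at Gbp10 make up 61.0%, so the value of Mpa2l is uncertain in the same way as that of Tgtp.

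BC057170 (Gbp9; gene identifier 236573; chr5:105508317-105539297, minus strand) had heights of 16, 22.8, 31.8 and 29.2 in the same order. The untreated fold was 1.98 (1.46 to 2.72) and the treated fold was 1.29 (0.969 to 1.71). Most of the summed height comes from a region shared with its neighbour Gbp4, a further GBP. This largest of its 4 active regions had heights of 50, 70, 96 and 95, and its highest points lay 4497 to 5041 bp upstream of BC057170 and 434 to 978 bp past the 3′ end of Gbp4. The other 3 regions summed to 14, 21, 31 and 22, a Parp14+/+ to Parp14−/− ratio of 0.452 (0.222 to 0.874) untreated and 0.955 (0.499 to 1.82) with PJ34. Intervals covered 41.9% of BC057170 in Parp14−/− and 42.4% in Parp14−/− + PJ34, against 5.96% in both Parp14+/+ libraries. Of its 36-base stretches 27.8% occur unchanged at another position in the GBP and IRG loci, its own locus included, and 22.2% at Gbp8.

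The line at the Gbp2 locus (chr3:142283627-142300972, plus strand), which carries the transcript accession of Gbp2 and another label, had heights of 11, 15, 16 and 13. The untreated fold of 1.45 (0.634 to 3.47) and the treated fold of 0.867 (0.380 to 1.95) were both within counting error, and in the treated pair the Parp14+/+ library was the higher. Intervals were called in the Parp14−/− libraries alone. They covered 66.3% of the gene in Parp14−/− and 100% in Parp14−/− + PJ34, and none was present in either Parp14+/+ library. These calls did not follow the heights in the treated pair, where 15 in Parp14+/+ came without an interval and 13 in Parp14−/− with an interval. An interval is a threshold call within 1 library, so its presence does not show a difference between the genotypes here. The highest points lay 114 and 98 bp from the annotated start. Its active region also holds Gbp2b, formerly Gbp1, with the same values.

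**Figure D2:**
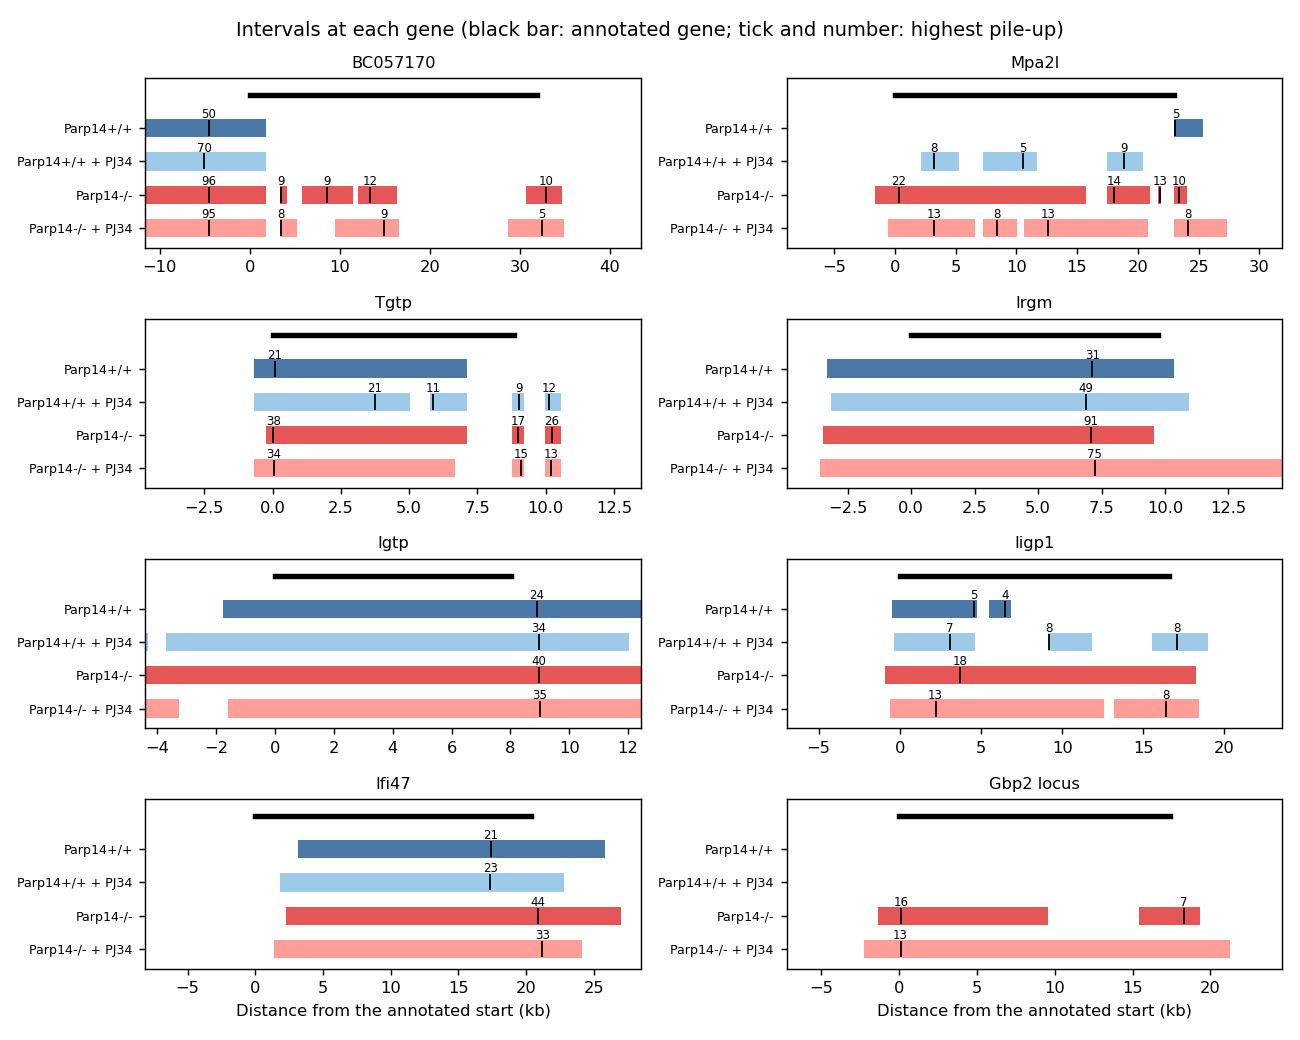
Enriched intervals of each library (coloured bars) by distance in kb from the annotated start, with the gene as a black bar and each highest point as a tick with its height in fragments. Bars that reach the frame run on past it. Mpa2l, BC057170 and the Gbp2 locus are covered mainly in the Parp14−/− libraries, and Irgm, Igtp and Ifi47 are covered in all 4.

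The length of gene inside intervals is a second readout of the same libraries. It was longer in Parp14−/− than in Parp14+/+ for 4 of 7 members, BC057170, Mpa2l, Tgtp and Iigp1, and for 18.6% of all genes. The other 3 were covered over their whole length in every library. The direction differs from the genome as a whole, where 98.1 Mb lay inside Parp14+/+ intervals and 73.8 Mb inside Parp14−/− intervals, and 49.9% of genes had the longer cover in Parp14+/+. With PJ34 the same count was 4 of 7, against 21.8% of all genes. For Tgtp the lengths were close, at 75.2% and 76.2% of the gene in the untreated pair.

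Heights with and without PJ34 differed in opposite directions in the 2 genotypes. The baselines of these comparisons are the untreated libraries on which the names were selected, low in Parp14+/+ and high in Parp14−/−, so a higher height than the first and a lower one than the second follow in part from the selection. The counts are therefore a description, and nothing is read from the shares of all genes given beside them. The untreated Parp14+/+ height was the lowest of the 4 libraries at all 7 members and at 17.7% of all genes. With PJ34 it was higher at all 7 and at 52.7% of all genes, by 1.10-fold at Ifi47 to 1.60-fold at Iigp1, and 5 of 7 members were called higher with PJ34, as were 15.9% of all genes. Mpa2l and Ifi47 were not called. In Parp14−/− cells the height with PJ34 was lower at all 7 and at 57.4% of all genes, from 0.556-fold at Mpa2l to 0.921-fold at BC057170, and 5 of 7 were called higher without PJ34, as were 19.6% of all genes. BC057170 and Igtp were not called. The pattern of a higher height with PJ34 in Parp14+/+ and a lower one in Parp14−/− was shown by 7 of 7 members and by 30.2% of all genes.

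Few of these PJ34 differences exceed counting error. The interval left out 1 for 1 member in Parp14+/+, BC057170 at a fold of 1.42 (1.02 to 1.99), and for 1 member in Parp14−/−, Mpa2l at 0.556 (0.326 to 0.926), and for 0.924% and 1.37% of all genes. Without the region shared with Gbp4, an alternative chosen after seeing the data, the Parp14+/+ to Parp14+/+ + PJ34 ratio of BC057170 was 0.667 (0.314 to 1.37), and the interval held 1. These comparisons each share a library with the untreated genotype comparison, so the low Parp14+/+ heights enter both. Over all genes the median ratio was 1.14 in the treated genotype pair and 1.08 for Parp14−/− to Parp14−/− + PJ34, since the Parp14−/− + PJ34 library was lower as a whole, by 0.14 on the log2 scale of its median ratio to Parp14+/+. With the libraries scaled to equal medians, the median ratio of the members in the treated pair was 0.590 in place of 0.677, and 3 of 7 in place of 5 were called higher in Parp14−/− than in Parp14−/− + PJ34. The same scaling changed the calls over all genes in the treated pair from 27.7% higher in Parp14+/+ and 8.64% higher in Parp14−/− to 15.5% and 17.0%. For Parp14−/− against Parp14−/− + PJ34 it changed them from 19.6% and 7.20% to 12% and 12.8%.

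**Figure D3:**
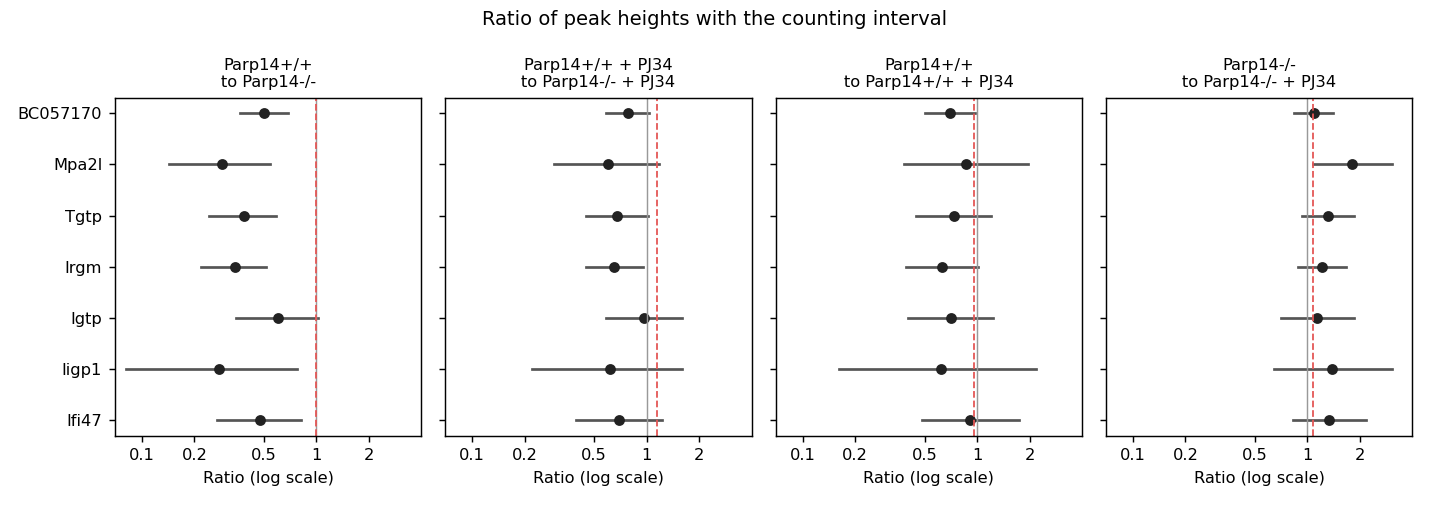
Ratio of peak heights on a log axis for the 7 accepted genes in the 4 pairs of libraries, as points with 95% Clopper-Pearson intervals. The grey line marks 1 and the dashed line the median of all genes. Ratios run from 0.278 to 0.600 in the untreated genotype pair and from 0.600 to 0.971 in the treated one.

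The other GTPases of the family followed the members in part. Of 16 further symbols 11 had a line and 9 an interval, and 5 of these 9 were called higher in Parp14−/−, with 0 called higher in Parp14+/+ and a median ratio of 0.688. Gbp2b, Gbp5, Gbp7, Gbp11 and Gm4951 had intervals in the Parp14−/− libraries alone. They entered the count through these libraries and could not be called higher in Parp14+/+, so the counts and the median follow in part from the interval filter. Gbp4 had heights of 50, 70, 96 and 95, with a ratio of 0.521 (0.362 to 0.741). Gbp7 had 5.5, 8, 12.5 and 13, and Gm4951, an IRG gene next to Iigp1, had 4.5, 5.5, 11.5 and 9.5. Both were again lower in the Parp14+/+ libraries, with ratios of 0.440 (0.195 to 0.927) and 0.391 (0.159 to 0.878). Of the 5 called genes, Gm12250 and Gbp2b carry the values of Igtp and the Gbp2 locus. Gbp4 is the region that gives most of the summed height of BC057170, so these 3 add no measurement of their own. The Gbp7 line is the one labelled Gbp2, a name selected on the untreated pair. Its untreated ratio and call are therefore a description too.

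Not every GTPase gene showed the contrast. Gbp8, which lies in the same chromosome 5 cluster as BC057170 and Mpa2l, had heights of 11.3, 13.3, 10.3 and 9.33, a ratio of 1.10 (0.654 to 1.85), and with PJ34 it was called higher in Parp14+/+ at 1.43 (0.860 to 2.40). Gbp5 had an untreated ratio of 0.7 (0.327 to 1.46), Gbp11 0.737 (0.342 to 1.55) and Irgc1, which is expressed chiefly in testis, 0.867 (0.380 to 1.95), and none of these 3 was called in that pair. With PJ34 Gbp11 was called higher in Parp14−/−, at a ratio of 0.650 (0.297 to 1.37). Mx1 and Mx2, antiviral GTPases induced by type I interferon, had no interval in any library and heights of at most 7. In the treated pair 4 of the 9 were called higher in Parp14−/− and 1 in Parp14+/+, with a median ratio of 0.971. Over all genes the shares in that pair were 8.64% and 27.7%, with a median ratio of 1.14. The genes with intervals in the Parp14−/− libraries alone could not be called higher in Parp14+/+ here either.

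Along the pathway that induces these genes, the directions were mixed. Ifng itself, the cytokine, had heights of 22, 20, 16 and 14, lower in both Parp14−/− libraries, and was called higher in Parp14+/+ in both genotype pairs. Both ratios were within counting error, at 1.38 (0.690 to 2.80) untreated and 1.43 (0.686 to 3.06) with PJ34. The cultures held an antibody to IFN-γ. Of the receptor chains, Ifngr1 had 4.67, 7.33, 9.33 and 6.67 with an untreated ratio of 0.5 (0.243 to 0.982), and Ifngr2 had 9, 9, 8 and 7 with 1.12 (0.385 to 3.35). Among the kinases, Jak2 had heights of 107, 106, 140 and 132 and a ratio of 0.764 (0.589 to 0.990), and Jak1 had 0.767 (0.472 to 1.24) and was not called.

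The transcription factors differed among themselves in the treated pair. Irf1 had heights of 86, 110, 144 and 119, the same order of libraries as the members, with an untreated ratio of 0.597 (0.452 to 0.785) and a treated ratio of 0.924 (0.707 to 1.21). Stat2 had 11, 21, 18 and 15, with an untreated ratio of 0.611 (0.261 to 1.37), and with PJ34 it was called higher in Parp14+/+ at 1.4 (0.688 to 2.92), opposite to the members. Irf9 had 73, 60, 103 and 63, and was the one named factor whose Parp14+/+ height was lower with PJ34. Its treated ratio of 0.952 (0.657 to 1.38) was not called. Socs1, the feedback inhibitor of this pathway, had 53, 52, 63 and 62 and was not called. Over the signalling list 21 of 22 genes had a line, 9 were called higher in Parp14−/− and 3 in Parp14+/+, and the median ratio was 0.841. In the treated pair 3 were called higher in Parp14−/− and 5 in Parp14+/+, with a median ratio of 1.08. All genes leaned to Parp14+/+ in that pair too, with 8.64% and 27.7% called and a median ratio of 1.14. Some genes of this list had intervals in the Parp14+/+ libraries alone, so these counts depend in part on the interval filter.

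Interferon-induced genes outside the GTPase families were counted in the same way. Of 40 genes 29 had a line and 21 an interval, 11 were called higher in Parp14−/− and 1 in Parp14+/+, and the median ratio was 0.667. In the treated pair 6 were called higher in Parp14−/− and 2 in Parp14+/+, with a median of 0.857. The shares of all genes were 8.64% and 27.7% there, with a median ratio of 1.14. Some genes of this list had intervals in the libraries of 1 genotype alone, mostly Parp14−/−, and could be called only in its direction. These counts therefore follow in part from the interval filter. The 3 genes with the highest summed heights differed among themselves. Zbp1, a nucleic acid sensor, had a ratio of 0.833 (0.517 to 1.34), Oasl1, an oligoadenylate synthetase-like gene, 0.647 (0.361 to 1.14), and Ifi35 1.31 (0.809 to 2.15), the one gene of the list that was called higher in Parp14+/+. Oasl1 had no interval in any library.

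**Figure D4:**
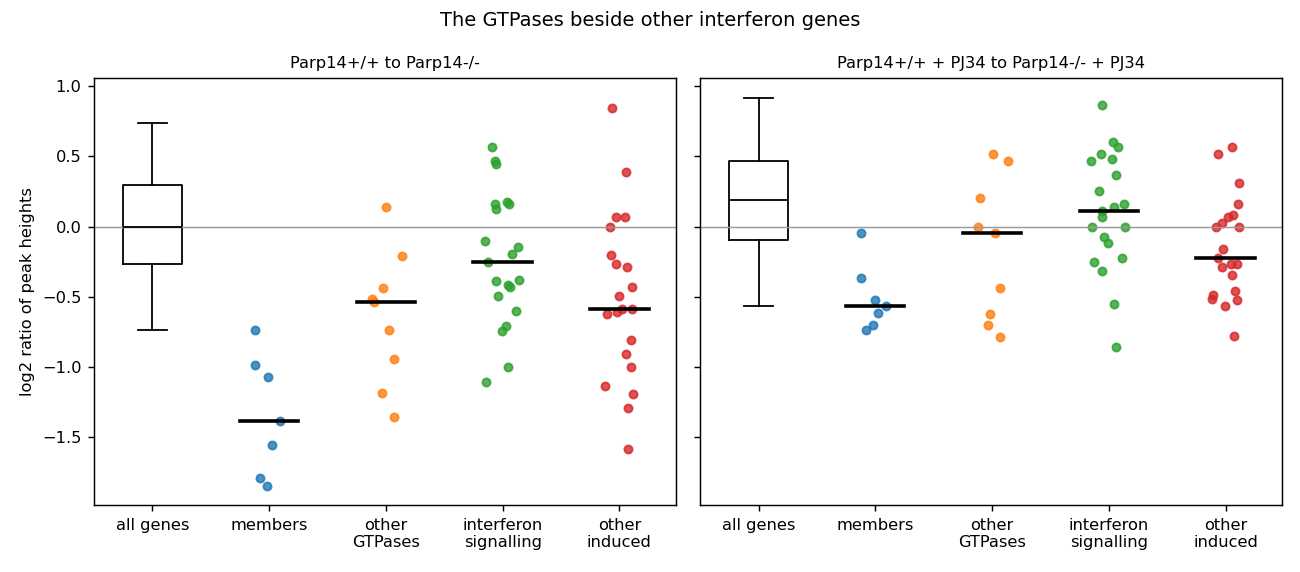
Log2 ratio of peak heights for the untreated and the PJ34-treated genotype pair, with all genes as a box (quartiles, whiskers from the 5th to the 95th percentile) and each gene of 4 lists with an interval as a point, black bars marking medians. The points of the 7 members lie below 0 in both panels, with medians of 0.383 and 0.677 as ratios, and the other lists spread to both sides.

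The genes outside the families whose 4 heights were most like the mean profile of the members, by Euclidean distance between centred log2 heights among 821 genes, were Nabp1 (32, 45, 87 and 83), Mief1 (17, 19.7, 36.5 and 23.7) and Hook2, Junb and Prdx2, which share 1 region (65, 73, 125 and 90). Their distances were 0.332, 0.336 and 0.364. The profile rests on 4 libraries at equal depth, so likeness is a description.

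The labelled cell type was checked against markers. All 6 T cell genes and all 4 Th2 genes had an interval in at least 1 library. Il5 had none in either Parp14−/− library, and Cd3g had an interval in untreated Parp14+/+ alone. Cd4 had none in untreated Parp14−/− and Lck none in Parp14−/− + PJ34. The summed heights of Gata3, Il4, Il5 and Il13 were 180 and 151 in the Parp14+/+ cells without and with PJ34, and 95 and 77 in the Parp14−/− cells, opposite in direction to the GTPases. The Th1 genes with a line, Tbx21, Ifng and Il12rb2, summed to 87, 67, 72 and 56, and were not higher in Parp14−/−. Of the CD8 T cell genes, Cd8a had no interval and heights from 3 to 6, while Gzmb, which activated T cells also express, had 53, 58, 80 and 65. Among 5 B cell genes only Cd79a had an interval, with values identical to those of the neighbouring Rps19. Among 3 myeloid genes with a line, Csf1r had heights from 5.5 to 8.5 and an interval in every library but untreated Parp14−/−. Itgam had heights from 0 to 4 and no interval, and Cd68 carried the values of Eif4a1. The part of these cell types in the GTPase heights was not tested, and more cells of a type cannot be told apart from more polymerase per cell. Of the Parp14 gene, 22873 and 20837 bp lay inside intervals of the Parp14+/+ libraries without and with PJ34, and 2687 and 3287 bp inside those of the Parp14−/− libraries, which fits the genotype labels. Its average peak height differed far less, at 8 and 11 in the Parp14+/+ libraries and 6.67 in each Parp14−/− library.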

How the data were processed

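Chromatin of Th2 cells was immunoprecipitated with an antibody to phosphoserine 2 RNA Polymerase II, with 1 library in each of 4 conditions. The authors mapped 36-base reads to mm9 and made the libraries equal in their number of uniquely mapped alignments. They called intervals with SICER (version not given in the sources used here) against Input, and deposited the intervals with the height of their highest point. They also deposited the signal of each gene as an average peak height. This signal was used as deposited, taken back to whole sums over active regions, in which all but 15 to 23 of 11608 lines per library came out whole (within 0.01). No value per gene was used from Input, and 8 columns of per-sample values of other libraries were not used.

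Gene labels in the table were often wrong, so lines were named by transcript accession in RefSeq (GRCm38.p6, names alone; 9850 lines) or by 50% reciprocal overlap with gencode vM1 on NCBIM37, the assembly of mm9 (955 lines). The remaining 803 had no name. The members and gene lists were chosen with earlier results of these data known, and the height limit of 11 stands for a value limit of the study and was set in earlier work. The interval method was run on simulated independent Poisson counts, the case that it assumes. That run does not show how the interval holds for highest pile-ups summed over regions. Named genes were the members, every gene of the fixed family list with a line (the list does not hold Gm12185), 10 signalling genes fixed by name (the result of 1 is not reported here), the 3 other interferon-induced genes of highest summed height and the 5 genes most like the members with a summed height of at least 50. Python 3.11.15, pandas 2.3.3, numpy 2.4.6 and scipy 1.17.1 were used. Alternatives covered library scaling, the gene summary, a pseudocount of 1, the thresholds, a height filter, shared values, the covered window and motif mismatches.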

Additional observations from a re-analysis of the deposited data

Results flagged for a closer look

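The height with PJ34 against that without it differed in opposite directions in the 2 genotypes at all 7 accepted GTPases. With PJ34 the height in Parp14+/+ cells was 1.42-fold at BC057170, 1.15-fold at Mpa2l, 1.35-fold at Tgtp, 1.58-fold at Irgm, 1.42-fold at Igtp, 1.60-fold at Iigp1 and 1.10-fold at Ifi47. In Parp14−/− cells it was 0.921-fold at BC057170, 0.556-fold at Mpa2l, 0.765-fold at Tgtp, 0.824-fold at Irgm, 0.875-fold at Igtp, 0.722-fold at Iigp1 and 0.750-fold at Ifi47. Each condition is 1 library, so the difference between the genotypes was not tested. The untreated libraries that serve as baselines are those on which the genes were selected, low in Parp14+/+ and high in Parp14−/−, so the pattern follows in part from the selection and is a description. It was present at 30.2% of all genes with an interval, from which nothing is read. After the libraries were scaled to equal medians, the ratio of Parp14−/− to Parp14−/− + PJ34 at BC057170 was 0.987, and so its direction turned, while the other 6 kept theirs.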

How the results depend on the processing

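No paired analysis was possible because each condition has 1 library, and for the same reason no replicate could be left out. In the untreated genotype pair all 7 members stayed called higher in Parp14−/− under the outer thresholds alone, without the interval requirement, under median scaling and with shared values counted once. The shares of all genes called were 8.99%, 17.5%, 15.0% and 14.3% in that order. Fewer stayed called where the higher library had to reach a summed height of 50, since 4 members have low sums. These were 3 members in the untreated pair, beside 1.71% of all genes, and 3 in the treated pair, beside 1.03%. For PJ34 in Parp14+/+ it was 1, beside 0.819%, and for Parp14−/− over Parp14−/− + PJ34 it was 2, beside 1.79%. The outer thresholds alone left 2 members called higher with PJ34 in Parp14+/+ and 1 called higher without it in Parp14−/−, and median scaling left 3 in the latter. With 1 mismatch allowed, 4 of 5 member promoters held a GAS and 4 a STAT6-type site, beside 71.4% and 68.7% of all promoters. The highest pile-up among intervals gave untreated ratios from 0.227 to 0.600 at 6 members, Iigp1 having no Parp14+/+ interval on its line, and treated ratios from 0.618 to 1.00, the latter at Iigp1 in place of 0.615. Covered length was longer in Parp14−/− for 5 members over the vM1 spans, an alternative chosen after seeing the data. BC057170 without the region of Gbp4, also chosen after seeing the data, had an untreated ratio of 0.452 in place of 0.504. Its treated ratio was then 0.955 (0.499 to 1.82) in place of 0.778, and so no longer past the thresholds. Low heights limit Iigp1, Mpa2l and the Gbp2 locus most.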
